A study of Mus musculus with 6 samples.

Results

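The 8 genes described here encode the proteins that load and display peptides on MHC class II molecules, together with their transcriptional activator: H2-Aa, H2-Ab1, H2-Eb1, H2-DMa, H2-DMb1, H2-DMb2, Cd74 and Ciita. They were chosen by name, as the rows of the authors' annotated expression table whose symbol equals one of the 8, and 6 of the 8 had a row among 16111 genes. H2-Eb1 and Ciita had no row and are not analysed here. Rows with names summed to 10 counts or more, and no unnamed feature of the raw count table held more than 9.

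The samples were cultures of macrophages from mouse fetal liver, compared between wild-type fetuses and fetuses lacking Ahrr, which encodes a repressor of the AhR pathway, with 3 libraries per genotype. All 6 are labelled strain C57BL/6 RCC, and the cells were isolated at embryonic day E13.5 and kept for 5 weeks in RPMI with 10% FCS and 2% GM-CSF before the non-adherent cells were taken, so the GM-CSF culture is shared by both genotypes. The labels give each library a mouse number within its genotype, but say neither how the Ahrr allele was made nor whether fetuses were pooled, and interferon gamma is not listed in the medium. Where it is not known that cultures were separate, p-values measure only the spread between these samples.

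Class II molecules are pairs of an alpha and a beta chain, such as H2-Aa with H2-Ab1, that show peptides from endocytosed proteins to CD4 T cells. In the endoplasmic reticulum they bind the invariant chain, encoded by Cd74, which blocks the groove and guides the complex to endosomes. There proteases trim the invariant chain, and H2-DM, a pair made of H2-DMa with a H2-DMb chain, removes its last fragment and helps peptides bind. Ciita switches these genes on together by docking onto RFX, CREB and NF-Y factors held at paired X and Y boxes in their promoters, and interferon gamma is a classical inducer of Ciita in macrophages.

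The promoters are shown for the adjacent H2-DMb genes, whose counts are compared with each other, and for H2-Aa and H2-Eb1, an alpha and a beta chain of different class II molecules. Each line gives the 150 bases before the start site, from RefSeq on GRCm38.p6, on the strand of the gene. Capitals mark ACNGATG, a core of the X box, and ATTGG, the core of the Y box, on either strand.
H2-DMb1: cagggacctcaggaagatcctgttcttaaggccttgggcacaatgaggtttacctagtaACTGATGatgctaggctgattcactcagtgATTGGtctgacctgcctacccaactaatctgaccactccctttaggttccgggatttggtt
H2-DMb2: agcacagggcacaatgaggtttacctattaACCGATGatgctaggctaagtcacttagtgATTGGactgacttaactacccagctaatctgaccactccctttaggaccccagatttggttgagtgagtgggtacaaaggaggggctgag
H2-Eb1: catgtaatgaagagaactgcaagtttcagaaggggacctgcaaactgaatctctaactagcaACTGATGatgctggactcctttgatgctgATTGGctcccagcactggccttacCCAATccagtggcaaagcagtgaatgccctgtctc
H2-Aa: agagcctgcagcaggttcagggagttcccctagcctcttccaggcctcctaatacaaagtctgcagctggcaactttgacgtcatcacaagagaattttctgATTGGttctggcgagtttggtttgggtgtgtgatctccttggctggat

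The windows lie at chr17:34153041-34153190 for H2-DMb1, chr17:34145099-34145248 for H2-DMb2 and chr17:34305717-34305866 for H2-Eb1, all on the plus strand, and at chr17:34287824-34287973 on the minus strand for H2-Aa. In both H2-DMb promoters ACNGATG was followed by ATTGG after 23 bases, and in H2-Eb1 after 22 bases. For H2-Aa the 1 match of ACNGATG in 250 bases was on the opposite strand and outside the bases shown. Forms of the X box that differ from ACNGATG were not searched, so a missing mark does not show that a promoter lacks an X box. Over the 250 bases upstream of 32851 start sites, searched on both strands with the letters given, 8.31% held ACNGATG, 33.8% held ATTGG and 0.128% held them in this order 15 to 30 bases apart, a range set after these promoters had been seen. The 250 bases upstream of H2-DMb1 and H2-DMb2 were identical at 174 of 209 aligned positions (83.3%), with 82 gap positions. Of the 2 start sites listed for H2-DMa, neither had ACNGATG in its 250 bases and 1 had ATTGG, at position -198. Promoters of H2-Aa, H2-Eb1, H2-DMa, H2-DMb1 and H2-DMb2 were matched, and those of H2-Ab1 and Ciita were not used here.

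The genes of the H2-DM peptide editor were the most abundant members in both genotypes, and 2 of the 3 were higher in Ahrr-deficient macrophages. H2-DMa rose 1.52-fold and H2-DMb2 2.28-fold, while H2-DMb1 had a 1.19-fold higher level that did not pass the test. H2-Aa, H2-Ab1 and Cd74 were scarce in both genotypes, at a mean of at most 1.84 counts per 1000000 counts of the library (CPM). A single library held 1 to 11 counts of H2-Aa, 0 to 24 of H2-Ab1 and 2 to 68 of Cd74. Fold changes are edgeR estimates with library totals scaled by TMM factors, while CPM are unscaled, so ratios of mean CPM can differ from them. The TMM factor was 0.904 in wild-type replicate 2 and 1.001 to 1.040 in the other libraries. Levels were tested with edgeR's quasi-likelihood test over 11408 genes, and 4 of the 8 members passed its filter on low counts. Of these 4, 2 were higher and 0 lower at an adjusted p under 0.05, where 19.6% of all tested genes passed, 9.62% higher and 9.95% lower. The median log2 fold change of the 4 members was 0.63, and that of all tested genes was 0.01.

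Library totals ranged from 3556106 counts in Ahrr-deficient replicate 1 to 41668336 in Ahrr-deficient replicate 2, so 3 counts, taken as the floor of detection, correspond to between 0.072 and 0.844 CPM. Wild-type replicate 2 stood apart through a ribosomal RNA gene, CT010467.1, which took 5.28% of its counts and at most 0.0679% of those of any other library. Ahrr itself, the targeted gene, fell from 4.74 ± 0.53 to 2.01 ± 0.71 CPM (SD, n = 3; log2 fold change -1.21, edgeR adjusted p 0.0151; 0.0631 without wild-type replicate 1 and 0.0502 without wild-type replicate 3), and reads assigned to it remained in all 3 Ahrr-deficient libraries. Macrophage markers were present in every library. Their summed level over 8 genes was 20883 to 26333 CPM in wild-type and 14859 to 22206 CPM in Ahrr-deficient cells. Most of that sum was Lyz2, with means of 19958 CPM in wild-type and 15185 CPM in Ahrr-deficient cells. Of the 8 markers 0 were higher and 2 were lower, against 9.62% and 9.95% of all tested genes. The median log2 fold change of the 8 was -0.38.

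**Figure D1:**
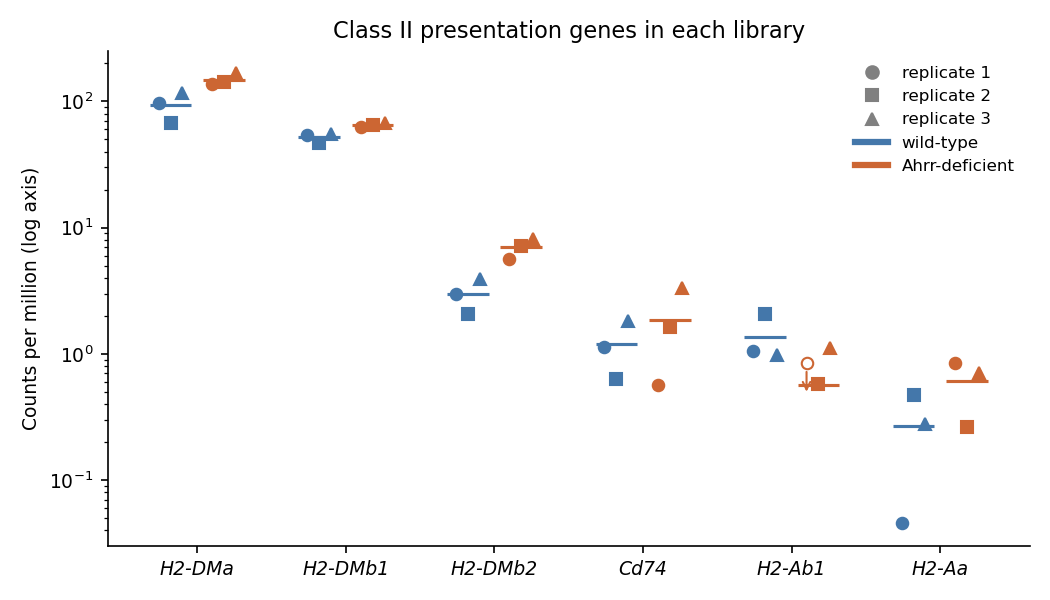
CPM (log axis) of the 6 class II presentation genes with a row, in each of the 3 wild-type (blue) and 3 Ahrr-deficient (orange) libraries; the marker shape gives the replicate and the line the group mean. An open marker with an arrow stands for a library with 0 counts, drawn at its floor of 3 counts (H2-Ab1, Ahrr-deficient replicate 1). The H2-DM genes lie at 2.06 CPM or more and their genotypes do not overlap, while H2-Aa, H2-Ab1 and Cd74 lie at 3.34 CPM or less and overlap.

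H2-DMa (ENSMUSG00000037649.9, protein-coding, chromosome 17, 34119541 to 34139101, plus strand, GRCm38) encodes the alpha chain of the peptide editor. It had 96.1, 67.5 and 117 CPM in wild-type replicates 1, 2 and 3, and 136, 142 and 167 CPM in the Ahrr-deficient ones. Every Ahrr-deficient library was above every wild-type library, and wild-type replicate 2 was the lowest of all. The exact 95% binomial intervals of Ahrr-deficient replicate 1 (124.2 to 148.8 CPM) and wild-type replicate 3 (109.3 to 125.3 CPM) overlapped. Such intervals cover counting error only. The mean rose from 93.6 ± 24.9 to 148 ± 16 CPM (SD, n = 3). The edgeR log2 fold change of H2-DMa was 0.60 ± 0.15 (estimate ± SE, adjusted p 0.0227). Leaving out 1 library at a time ended the call in 4 of 6 fits, with edgeR adjusted p values of 0.0891 without wild-type replicate 1, 0.0667 without wild-type replicate 2, 0.0516 without Ahrr-deficient replicate 2 and 0.0886 without Ahrr-deficient replicate 3. The log2 fold change in these 6 fits stayed between 0.46 and 0.74.

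Part of the H2-DMa gene model, 360 of 3448 exonic bases, overlaps exons of Brd2 on the opposite strand. The library kit named in the labels does not mark strand, so reads from that stretch cannot be told apart. Of the 75-base windows of H2-DMa transcripts 7.46% also occurred in Brd2, 75 bases being the read length. Brd2, a bromodomain gene, was at 182 ± 14 CPM in wild-type and 215 ± 22 CPM in Ahrr-deficient cells (SD, n = 3). Its edgeR log2 fold change was 0.17 ± 0.09 (estimate ± SE, adjusted p 0.194, and 0.03 without Ahrr-deficient replicate 1). The part of Brd2 in the H2-DMa count was not tested.

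H2-DMb1 (ENSMUSG00000079547.3, protein-coding, chromosome 17, 34153072 to 34160230, plus strand) encodes the beta chain that was the more abundant of the pair. Its wild-type levels were 54.6, 46.3 and 55.1 CPM in replicates 1, 2 and 3, and its Ahrr-deficient levels 63.0, 64.3 and 67.6 CPM. The groups did not overlap, although the gap between Ahrr-deficient replicate 1 and wild-type replicate 3 was within their counting error: the exact 95% binomial intervals were 55.01 to 71.8 CPM and 49.8 to 60.8 CPM, and such intervals cover counting error only. The mean was 52.0 ± 4.9 CPM in wild-type and 65.0 ± 2.3 CPM in Ahrr-deficient cells (SD, n = 3). The edgeR log2 fold change of H2-DMb1 was 0.25 ± 0.08 (estimate ± SE, adjusted p 0.0574). It passed the threshold without Ahrr-deficient replicate 1 (edgeR adjusted p 0.0404) and with limma-voom (adjusted p 0.0469).

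H2-DMb2 (ENSMUSG00000037548.14, protein-coding, chromosome 17, 34143307 to 34151555, plus strand) encodes the alternative beta chain and had the larger change at a far lower level. Its counts were 65, 13 and 28 in wild-type replicates 1, 2 and 3, which is 2.96, 2.06 and 3.92 CPM. Those of Ahrr-deficient replicates 1, 2 and 3 were 20, 299 and 80, which is 5.62, 7.18 and 8.09 CPM. The 3 Ahrr-deficient libraries were all above the 3 wild-type ones. The exact 95% binomial interval of Ahrr-deficient replicate 1, 3.44 to 8.69 CPM, overlapped those of all 3 wild-type libraries. These were 2.29 to 3.78, 1.10 to 3.53 and 2.61 to 5.67 CPM in replicates 1, 2 and 3. The mean rose from 2.98 ± 0.93 to 6.96 ± 1.25 CPM (SD, n = 3). The edgeR log2 fold change of H2-DMb2 was 1.19 ± 0.22 (estimate ± SE, adjusted p 0.0077). Its call was lost without wild-type replicate 1 (log2 fold change 1.15, edgeR adjusted p 0.057) and held in the other 5 fits that left out a library.

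H2-DMb1 and H2-DMb2 are close copies, so their counts are uncertain where reads match both. In GENCODE M21 transcripts 15.8% of the 75-base windows of H2-DMb1 occurred in other genes, all of them in H2-DMb2, and 16.2% of those of H2-DMb2, mostly in H2-DMb1. With both counted as 1 gene, a combination chosen after the values were seen, the level rose from 54.97 ± 5.73 to 71.9 ± 3.5 CPM (SD, n = 3). The edgeR log2 fold change of the combined gene was 0.32 ± 0.08 (estimate ± SE, adjusted p 0.0271). For H2-DMa, H2-DMb1 and H2-DMb2 alike wild-type replicate 2 was the lowest library. Among all tested genes, 23.9% had every Ahrr-deficient library above every wild-type library, against 3 of the 4 tested members; in either direction 36.6% did not overlap.

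The balance between the beta chains was compared within each library, where it does not depend on the scaling. There were 18.4, 22.5 and 14.04 H2-DMb1 counts for each H2-DMb2 count in wild-type replicates 1, 2 and 3, and 11.2, 8.96 and 8.35 in Ahrr-deficient replicates 1, 2 and 3. The ratio was lower in every Ahrr-deficient library, with means of 18.3 ± 4.2 and 9.504 ± 1.5 (SD, n = 3) and a log2 difference of -0.93. The exact permutation test, two-sided, gave p = 0.1, the smallest that 3 libraries against 3 allow, and 0.4 after Benjamini-Hochberg adjustment over the 4 ratios computed. The count of H2-DMa over the sum of both beta chain genes was 1.68 ± 0.30 in wild-type and 2.06 ± 0.13 in Ahrr-deficient cells (SD, n = 3), and the groups overlapped (exact permutation p = 0.3, adjusted 0.4).

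**Figure D2:**
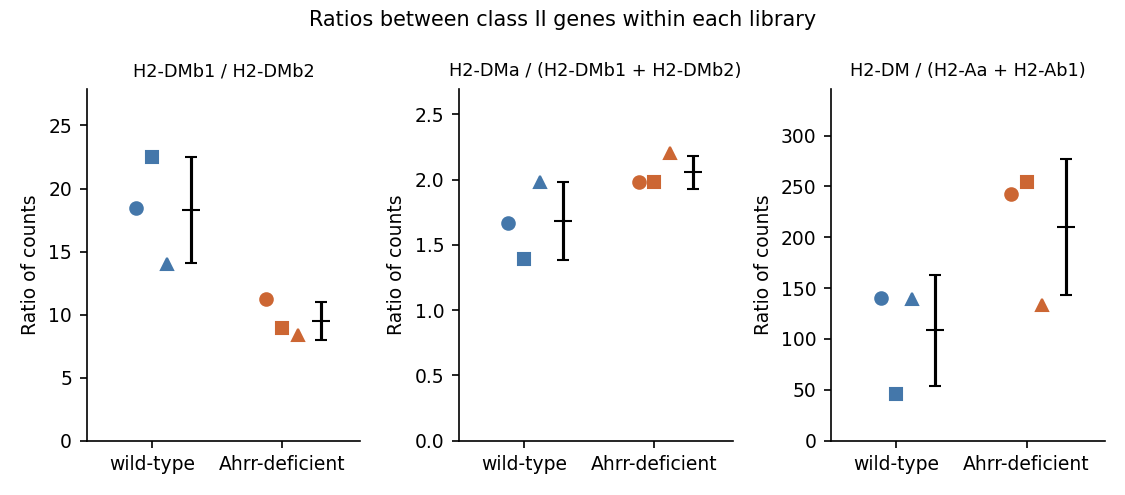
Ratios of counts between class II genes within each library, for 3 wild-type (blue) and 3 Ahrr-deficient (orange) libraries, with the mean and SD (n = 3) as black bars; each axis starts at 0. The ratio of H2-DMb1 to H2-DMb2 is between 14.04 and 22.5 in wild-type and between 8.35 and 11.2 in Ahrr-deficient libraries, while the groups overlap in the other 2 panels.

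The genes of the paired chains had few counts. H2-Aa (ENSMUSG00000036594.14, protein-coding, chromosome 17, 34282744 to 34287823, minus strand), the alpha chain of I-A, was counted 1, 3 and 2 times in wild-type replicates 1, 2 and 3, and 3, 11 and 7 times in the Ahrr-deficient ones. In CPM these were 0.0456, 0.476 and 0.280 against 0.844, 0.264 and 0.708, and wild-type replicates 1, 2 and 3 and Ahrr-deficient replicate 1 were at or under the floor of 3 counts. The groups overlapped, and in the deepest library the exact 95% binomial interval was 0.132 to 0.472 CPM.

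H2-Ab1 (ENSMUSG00000073421.5, protein-coding, chromosome 17, 34257689 to 34269419, plus strand), the beta chain that pairs with H2-Aa, was counted 23, 13 and 7 times in wild-type replicates 1, 2 and 3, and 0, 24 and 11 times in the Ahrr-deficient ones. This corresponds to 1.05, 2.06 and 0.981 CPM against 0, 0.576 and 1.11 CPM. The 0 in Ahrr-deficient replicate 1 allows a level of up to 0.844 CPM by the floor of 3 counts and 1.04 CPM by the upper exact 95% binomial limit, and the groups overlapped, with means of 1.36 ± 0.61 and 0.563 ± 0.556 CPM (SD, n = 3). Neither chain passed the filter on low counts. Without the filter the edgeR log2 fold changes were 1.19 for H2-Aa (SE 0.86, adjusted p 0.409) and -1.02 for H2-Ab1 (SE 0.54, adjusted p 0.246).

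Cd74 (ENSMUSG00000024610.14, protein-coding, chromosome 18, 60803848 to 60812652, plus strand), which encodes the invariant chain, was scarce too. Wild-type replicates 1, 2 and 3 gave 25, 4 and 13 counts of it (1.14, 0.635 and 1.82 CPM), and the Ahrr-deficient replicates 2, 68 and 33 counts (0.562, 1.63 and 3.34 CPM). Ahrr-deficient cells held both the lowest and the highest library. The lowest, Ahrr-deficient replicate 1, was under its floor of 3 counts (0.844 CPM). Its exact 95% binomial interval, 0.068 to 2.03 CPM, held the values of all 3 wild-type libraries. The means were 1.20 ± 0.60 and 1.84 ± 1.399 CPM (SD, n = 3), and the log2 fold change of 0.66 (SE 0.47) did not pass the test (edgeR adjusted p 0.341). The number of Cd74 counts for each count of H2-Aa and H2-Ab1 together was 0.912 ± 0.608 in wild-type and 1.48 ± 0.71 in Ahrr-deficient cells (SD, n = 3; exact permutation p = 0.5, adjusted 0.5).

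Per kilobase of exon in GENCODE M21, the wild-type order was H2-DMb1 at 30.9 ± 2.9, H2-DMa at 27.1 ± 7.2, H2-DMb2 at 1.71 ± 0.53, Cd74 at 0.714 ± 0.355, H2-Ab1 at 0.531 ± 0.236 and H2-Aa at 0.0704 ± 0.0568 CPM per kb (SD, n = 3). In Ahrr-deficient cells H2-DMa came first at 43.0 ± 4.7 and H2-DMb1 second at 38.6 ± 1.4 CPM per kb, followed by H2-DMb2 at 3.99 ± 0.71, Cd74 at 1.10 ± 0.83, H2-Ab1 at 0.219 ± 0.217 and H2-Aa at 0.159 ± 0.080. The ranges of mean ± SD overlapped between H2-DMa and H2-DMb1 and between Cd74 and H2-Ab1 in both genotypes, and between H2-Ab1 and H2-Aa in Ahrr-deficient cells. Among all 16111 annotated genes, the mean CPM of H2-DMa was above 90.2% of genes, that of H2-DMb1 above 79.1%, that of Cd74 above 31.5% and that of H2-Aa above 19.4%.

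Summed over the 6 genes, class II presentation transcripts took 156, 119 and 179 CPM in wild-type replicates 1, 2 and 3 and 206, 216 and 248 CPM in the Ahrr-deficient ones. The log2 difference of this sum was 0.58, and 0.50 with TMM-scaled library sizes. The H2-DM genes made up between 97.3% and 99.3% of that sum in each library. For each count of H2-Aa and H2-Ab1 there were 140, 45.6 and 140 counts of the H2-DM genes in wild-type and 243, 254 and 133 in Ahrr-deficient replicates 1, 2 and 3 (exact permutation p = 0.3, adjusted 0.4). In bulk RNA, fewer cells that carry a transcript and less of it per cell cannot be told apart.

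Position in the MHC was examined because these genes, apart from Cd74 and Ciita, sit within 252.3 kb of chromosome 17 between H2-Oa and H2-Ea-ps. Of 15 coding genes or polymorphic pseudogenes annotated there, 11 had a row and 8 were tested. Of these 8, 2 were higher, both of them members, and 2 were lower, against 9.62% and 9.95% of all tested genes. The genes higher in Ahrr-deficient cells were H2-DMa and H2-DMb2, and the neighbours that were lower were Psmb9 and Tap2, which encode an immunoproteasome subunit and a peptide transporter of the class I pathway. Psmb9 fell by 0.50 (SE 0.13) on the log2 scale with overlapping groups (edgeR adjusted p 0.0253), a call that was lost without wild-type replicate 1, wild-type replicate 3 or Ahrr-deficient replicate 2 (adjusted p up to 0.112). Tap2 fell by 0.33 (SE 0.09; edgeR adjusted p 0.0385), and among the fits that left out a library its call held only without Ahrr-deficient replicate 1 (adjusted p up to 0.139 in the others). Tap1, Psmb8 and Brd2 did not pass the test, at log2 fold changes of -0.14, -0.14 and 0.17. These neighbours were named for their position after their values were seen.

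**Figure D3:**
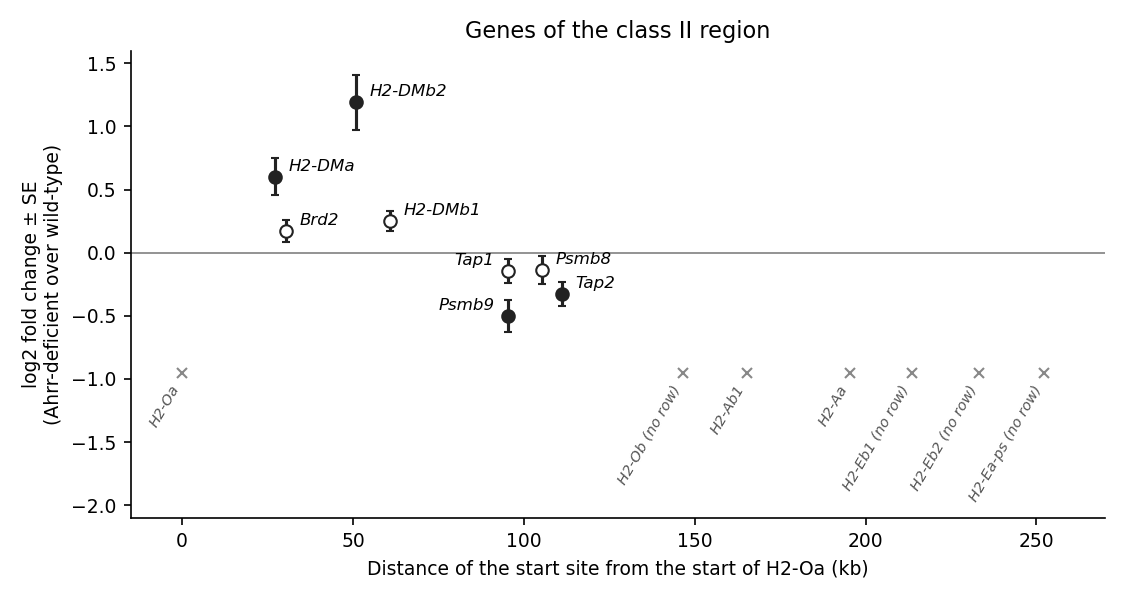
log2 fold change (Ahrr-deficient over wild-type) with its SE for the tested genes of the class II region, placed by the distance of the start site from the start of H2-Oa in kb; filled points passed the edgeR threshold and open points did not. Crosses, drawn at a fixed height that is no value, mark genes that were not tested or had no row. H2-DMa and H2-DMb2 lie above 0, at 0.60 and 1.19, and Psmb9 and Tap2 below it, at -0.50 and -0.33.

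The minor class II genes were hardly seen. Of the 4 listed, only H2-Oa, the alpha chain of the inhibitor of H2-DM, had a row, at 0.912, 0.476 and 1.82 CPM in wild-type replicates 1, 2 and 3 against 0.562, 0.360 and 0.506 CPM in the Ahrr-deficient ones. Its mean was 1.07 ± 0.69 CPM in wild-type and 0.476 ± 0.104 CPM in Ahrr-deficient cells (SD, n = 3), the groups overlapped, and it did not pass the filter on low counts. Without both wild-type replicate 2 and Ahrr-deficient replicate 1, a setting chosen after seeing the data, it passed the filter and was lower (log2 fold change -1.61, SE 0.47, edgeR adjusted p 0.0393), while with all libraries and no filter the adjusted p was 0.0902. H2-Ob, H2-Eb2 and H2-Ea-ps had no row.

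Factors that hold Ciita at class II promoters, or act with it there as coactivators (Crebbp, Ep300 and Kat2b), were present in both genotypes. Of 10 listed genes 10 were tested, 0 were higher and 1 was lower, against 9.62% and 9.95% of all tested genes. The median log2 fold change was 0.05. The gene that fell was Rfx5, the DNA-binding subunit of the RFX complex, at 23.5, 22.2 and 28.9 CPM in wild-type replicates 1, 2 and 3 against 18.6, 14.7 and 17.8 CPM in the Ahrr-deficient ones. The groups did not overlap, and it fell by 0.65 (SE 0.13) on the log2 scale (edgeR adjusted p 0.012; 0.0506 without Ahrr-deficient replicate 2 and 0.118 with all libraries thinned to the smallest total). The other RFX subunits did not pass the test, with log2 fold changes of -0.25 for Rfxap and 0.21 for Rfxank.

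For the interferon gamma signal that induces Ciita, 8 of 9 listed genes were tested. Of these, 0 were higher and 2 were lower, against 9.62% and 9.95% of all tested genes. The median log2 fold change of the 8 was -0.12. Ifngr1, the ligand-binding receptor chain, fell from 248 ± 23 to 183 ± 28 CPM (SD, n = 3; log2 fold change -0.51, SE 0.12, edgeR adjusted p 0.02), a call that held without Ahrr-deficient replicate 1 or 2 and was lost without any of the other 4 libraries (adjusted p up to 0.0797). Usf1, a factor that binds an interferon-responsive Ciita promoter, fell from 75.1 ± 8.0 to 60.9 ± 8.2 CPM (SD, n = 3), but its groups overlapped (edgeR adjusted p 0.0432). Among the fits that left out a library, the call of Usf1 held only without Ahrr-deficient replicate 1 (adjusted p up to 0.151 in the others).

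Of 7 listed myeloid regulators 1 was higher and 3 were lower, against 9.62% and 9.95% of all tested genes. The median log2 fold change of the 7 was -0.11. Irf4, an interferon regulatory factor of dendritic cells and GM-CSF-driven myeloid cells, rose from 22.4 ± 3.5 to 61.96 ± 10.05 CPM (SD, n = 3; log2 fold change 1.395, SE 0.13, edgeR adjusted p 8.97e-04). Irf8, which acts in the same lineages, fell by 0.44 on the log2 scale (edgeR adjusted p 0.00631). Prdm1, a repressor of Ciita in plasma cells, fell from 23.3 ± 5.8 to 10.5 ± 4.5 CPM (SD, n = 3; log2 fold change -1.404, edgeR adjusted p 0.0123; 0.0648 without Ahrr-deficient replicate 2 and 0.0595 without replicate 3). Spi1, the myeloid factor PU.1, differed by -0.06 on the log2 scale (edgeR adjusted p 0.78).

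**Figure D4:**
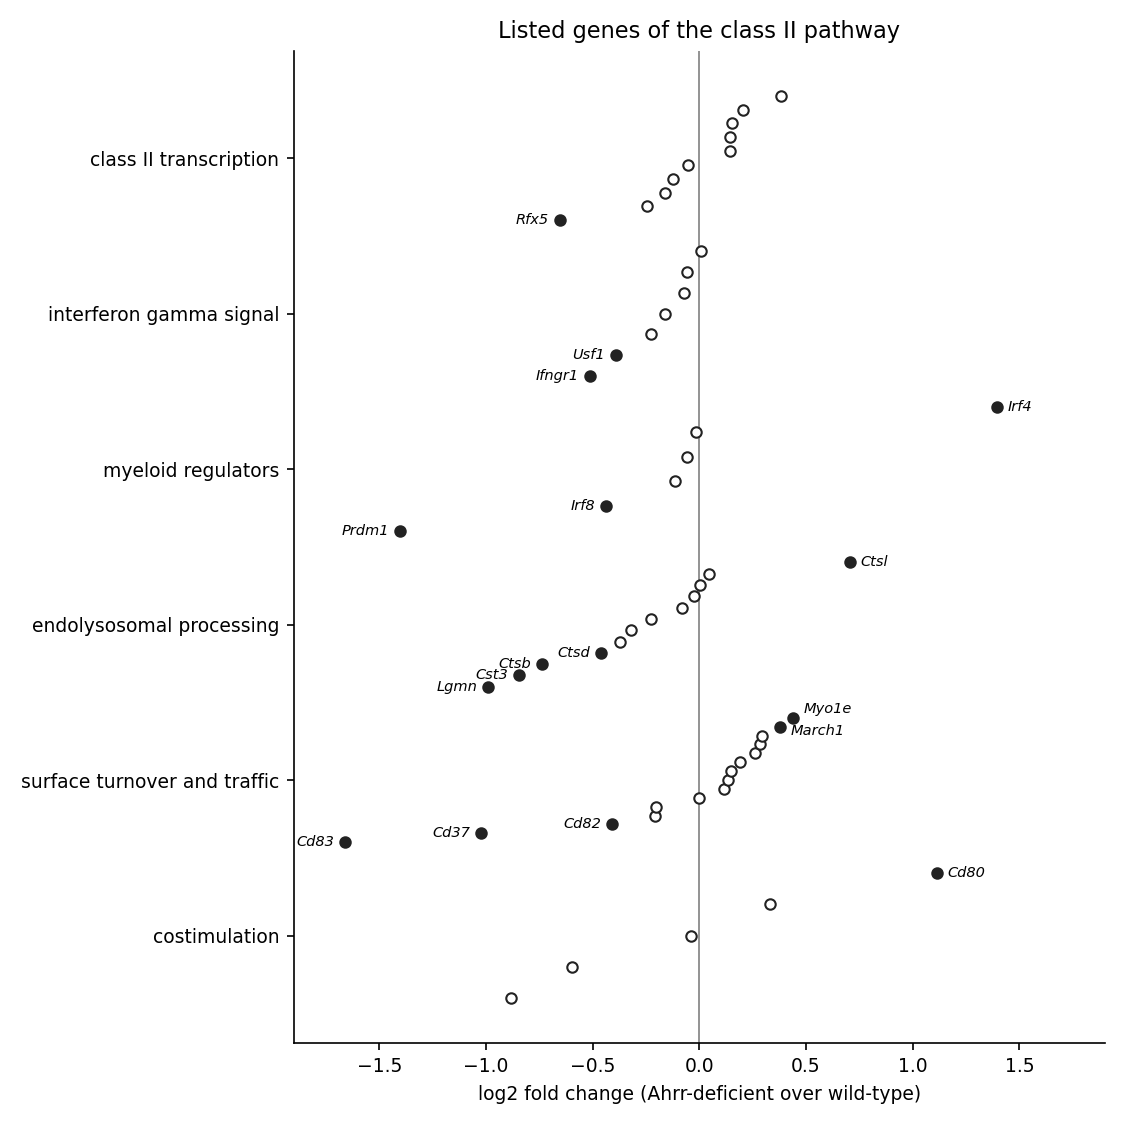
log2 fold change (Ahrr-deficient over wild-type) of tested genes of 6 lists of the class II pathway, 1 band of points per list, ordered by value; filled, labelled points passed the edgeR threshold and open points did not. Cd83 lies lowest at -1.66 and Irf4 highest at 1.395, and calls in both directions occur among the myeloid regulators, the endolysosomal genes and the surface turnover genes.

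Endolysosomal processing genes encode enzymes that cut antigens and the invariant chain, and their inhibitors and cofactors. Of 14 listed genes 12 were tested, 1 was higher and 4 were lower, against 9.62% and 9.95% of all tested genes, and the median log2 fold change was -0.27. With 1 library left out at a time, between 2 and 7 of these genes passed, against 5. Lgmn, an asparaginyl endopeptidase, fell from 307 ± 24 to 164 ± 23 CPM (SD, n = 3, log2 fold change -0.99, SE 0.14, edgeR adjusted p 0.00349). Cst3, a secreted cathepsin inhibitor, fell by 0.85 on the log2 scale (edgeR adjusted p 0.00376). Ctsb, a cathepsin, fell from 8823 ± 446 to 5572 ± 804 CPM (SD, n = 3; log2 fold change -0.74, edgeR adjusted p 0.0103). Ctsl, the cathepsin that cuts the invariant chain in thymic epithelium, rose from 890 ± 100 to 1537 ± 190 CPM (SD, n = 3; log2 fold change 0.71, edgeR adjusted p 0.0142). The call of Ctsb was lost without wild-type replicate 1, wild-type replicate 2 or Ahrr-deficient replicate 3 (adjusted p up to 0.0668), and that of Ctsl without wild-type replicate 1, wild-type replicate 3 or Ahrr-deficient replicate 2 (adjusted p up to 0.0621).

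Ctss and Ifi30 did not pass the test. Ctss, the cathepsin that trims the invariant chain in macrophages and dendritic cells, was at 4069, 3913 and 3894 CPM in wild-type replicates 1, 2 and 3 against 4075, 3293 and 3314 CPM in the Ahrr-deficient ones (log2 fold change -0.23, edgeR adjusted p 0.253). Ifi30, the thiol reductase that opens disulfide bonds of antigens, had 193 ± 3 CPM in wild-type and 192 ± 24 CPM in Ahrr-deficient cells (SD, n = 3; log2 fold change -0.08, edgeR adjusted p 0.632).

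Genes of class II turnover and traffic changed in both directions. Of 15 tested genes 2 were higher and 3 were lower, against 9.62% and 9.95% of all tested genes. The median log2 fold change of the 15 was 0.14. Cd83, which protects surface class II from ubiquitylation by March1, was at 57.4, 55.9 and 49.3 CPM in wild-type replicates 1, 2 and 3 against 22.5, 16.9 and 16.99 CPM in the Ahrr-deficient ones. It fell by 1.66 (SE 0.14) on the log2 scale (edgeR adjusted p 6.59e-04). March1, the ubiquitin ligase that sends class II to lysosomes, rose from 112 ± 10 to 153 ± 21 CPM (SD, n = 3; log2 fold change 0.38, SE 0.10, edgeR adjusted p 0.0346), a call that was lost without any wild-type library or Ahrr-deficient replicate 2 (adjusted p up to 0.124); it lies outside the naming rule and was chosen after its value was seen. The tetraspanin genes Cd37 and Cd82 fell by 1.02 and 0.41 on the log2 scale (edgeR adjusted p 6.59e-04 and 0.00637), and the call of Cd82 was lost without wild-type replicate 1 (adjusted p 0.0505). Myo1e, a myosin of class II transport in dendritic cells, rose by 0.44 on the log2 scale (edgeR adjusted p 0.0221), a call that among these fits held only without Ahrr-deficient replicate 1 (adjusted p up to 0.0872 in the others).

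The costimulation list held costimulatory genes, which give T cells the signal that accompanies class II, and the coinhibitory ligands Cd274 and Pdcd1lg2. Of its 5 tested genes 1 was higher and 0 were lower, against 9.62% and 9.95% of all tested genes. The median log2 fold change of the 5 was -0.04. Cd80, a ligand of CD28, rose from 12.9 ± 1.7 to 29.8 ± 2.6 CPM (SD, n = 3; log2 fold change 1.11, SE 0.14, edgeR adjusted p 0.0024). Cd86, the other ligand of CD28, differed by -0.04 on the log2 scale (edgeR adjusted p 0.842). Cd40 had no row.

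Cells that carry class II were looked for through their markers. Of 6 B cell markers 1 had a row, Ighm, at 1.68 to 7.48 CPM over the 6 libraries, and the others, among them Cd79a, Cd79b, Ms4a1 and Pax5, had none. Of 10 markers of conventional dendritic cells 7 had a row; Flt3, Cd209a and Ccr7 had none, and Xcr1 had at most 0.42 CPM. The summed level of the dendritic cell list was 77.3 to 79.99 CPM in wild-type and 86.9 to 107 CPM in Ahrr-deficient cells, and most of it was Clec9a, which rose from 54.5 ± 2.9 to 81.2 ± 11.6 CPM (SD, n = 3; log2 fold change 0.49, edgeR adjusted p 0.0256; lost without any wild-type library or Ahrr-deficient replicate 2, adjusted p up to 0.102). Clec10a in the same list fell by 0.95 on the log2 scale (edgeR adjusted p 0.00239). Of 8 tested markers of alveolar-type macrophages 3 were higher and 1 was lower, against 9.62% and 9.95% of all tested genes. The median log2 fold change of the 8 was 0.13. Among them Itgax, the gene of CD11c, rose from 51.3 ± 5.7 to 176 ± 39 CPM (SD, n = 3, log2 fold change 1.70, edgeR adjusted p 6.96e-04). The marker that was lower, Fabp5, fell from 1039 ± 22 to 690 ± 5 CPM (SD, n = 3, log2 fold change -0.67, edgeR adjusted p 0.00452). The part of the cell types looked for here in the levels of H2-DMa and H2-DMb2 was not tested.

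By the root mean square difference of centred log2 CPM over the 6 libraries, the 6 genes nearest to the mean profile of H2-Aa, H2-Ab1 and Cd74 were Plk1, Aurka, Tuba1a, Cdca2, Mrm2 and 6330403L08Rik, at 0.23 to 0.29 log2 units among 10039 genes with a mean of at least 50 counts. That reference rests on few counts, and none of the 6 passed the test between genotypes. The genes nearest to the mean profile of H2-DMa, H2-DMb1 and H2-DMb2, a reference added after the values were seen, were Ptgs1, Nepro, St3gal4, Qrsl1, Carhsp1 and Plxdc2, at 0.045 to 0.079 log2 units. Ptgs1, which encodes cyclooxygenase-1, was the nearest of these, with 245 CPM in wild-type and 410 CPM in Ahrr-deficient cells.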

How the data were processed

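PolyA RNA of 6 libraries, 3 per genotype, was read as single 75-base reads from 100 ng of RNA, per the labels' protocols. The submitters' processing notes name build mm10 and, with no role given, STAR 2.7.10b and DESeq2 1.40.2; the annotation, the counting program and its strand setting are not given in the sources used here. The authors deposited raw counts for 53465 features without identifiers, and a normalized signal for 16111 genes with symbols. Each deposited signal was a whole multiple of 1 read (100% of values, tolerance 1e-06 reads), and the recovered reads matched, as a set, the raw features with at least 10 counts; these reads were analysed, with library totals from the raw table. Unnamed features held at most 0.0511% of a library.

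Genotypes, taken from the titles, were compared with edgeR 4.0.16 (TMM, filterByExpr, genotype only, quasi-likelihood test, two-sided) and Benjamini-Hochberg adjustment over 11408 genes at 0.05. Standard errors come from the fold change and F. CPM are counts per 1000000 counts of the library total, without TMM scaling. Ratios were tested by exact permutation; ratios with H2-Eb1 and of H2-Aa to H2-Ab1 (a 0) were not computed, and sums over members carry no test. Coordinates and exon lengths are GENCODE M21 (GRCm38). The script was tested on simulated data. Members and lists were chosen with earlier results of these data known. Named list genes are up to 4 per list with the largest change past the threshold and a mean of at least 50 counts, and any called gene of the minor class II, class II transcription and interferon gamma lists; profile neighbours follow the rule given with them. Alternatives were RLE and upper-quartile scaling, no filter, limma-voom (limma 3.58.1), DESeq2 1.42.0, a minimum mean of 50 counts, a replicate block, thinning to the smallest total and leaving out libraries. Some listed genes are counted in their lists and are not reported here by name or drawn.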

Additional observations from a re-analysis of the deposited data

How the results depend on the processing

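H2-DMb2 kept its sign and its call in 14 of 15 alternatives (log2 fold change 1.08 to 1.35, adjusted p 0.00148 to 0.057) and H2-DMa in 12 of 16 (0.46 to 0.74, adjusted p 0.00187 to 0.0891); H2-DMb1 kept its sign in 15 and was past the threshold in 2, and Cd74 was past it in 0 of 14 (adjusted p 0.184 to 0.804). Of 476 alternative log2 values 0 reversed, 60 lost the threshold and 3 gained it, and 35 of 151 counts of genes moved by over 1.5 times. Most genes behind these log2 values had passed the threshold in the main fit, and the alternatives reuse the same libraries. Few reversals could therefore occur, and their absence is no independent check. Leaving out 1 library at a time gave 0 to 3 members past the threshold, against 2, with 0 without wild-type replicate 1; 694 to 3857 genes, against 2232; and 10 to 24 genes of the pathway lists, against 18. Thinning to the smallest total gave 1243 genes and ended the calls of Rfx5, Usf1, Myo1e, March1, Psmb9 and Tap2 (adjusted p 0.118, 0.196, 0.0707, 0.0531, 0.0606 and 0.0949); that of Tap2 was also lost with no filter (0.0607) and with DESeq2 (0.104), and with the replicate block 1390 were past the threshold. Leaving out both wild-type replicate 2 and Ahrr-deficient replicate 1, an alternative chosen after seeing the data, kept H2-DMb2 (log2 fold change 1.162) and H2-DMa (0.51) past the threshold and ended the call of March1 (adjusted p 0.0704). The labels link same-numbered libraries only by their number, and whether they shared a batch is not known. Their deviations correlated at -0.17, 0.07 and 0.13 for numbers 1, 2 and 3, which cannot settle it. The replicate block kept both member calls (adjusted p 0.023 for H2-DMb2 and 0.0139 for H2-DMa). It ended those of Usf1, Myo1e, March1 and Tap2 (adjusted p 0.0509, 0.0571, 0.0651 and 0.0893). The ratio of H2-DMb1 to H2-DMb2 stayed between -1.11 and -0.77 (log2 difference) when 1 library was left out. A single library held 0 to 24 counts of H2-Aa or H2-Ab1, and neither passed the test without the filter (edgeR adjusted p 0.409 and 0.246). For Cd74, at 2 to 68 counts, the exact intervals of Ahrr-deficient replicates 2 and 3 (1.27 to 2.07 and 2.30 to 4.69 CPM) do not overlap. The part of depth and of the spread between libraries in these results was not tested. The cause of each lost call was not tested.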
